A study of Mus musculus with 2 samples.

Results

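Prostanoids are lipid mediators made from arachidonic acid. The 10 genes described here encode enzymes that make them and the receptors that sense them: the cyclo-oxygenases Ptgs1 and Ptgs2, the terminal synthases Ptgis (prostacyclin), Ptges (prostaglandin E2) and Tbxas1 (thromboxane A2), and the receptors Ptgir (prostacyclin), Tbxa2r (thromboxane) and Ptger2, Ptger3 and Ptger4 (prostaglandin E2). They were taken by gene name from the gene spots of both arrays, where they held 14 probes of 41161 in all and 10 genes of 28649. The RNA came from the aorta of apoE-/- mice, 3 males and 3 females aged 16 weeks, which all lack apolipoprotein E throughout the body and develop atherosclerosis. The prone segment (arch) ran from the root of the aorta through its arch to 2 mm into the thoracic part, and the resistant segment (thoracic) was the 6 mm that followed. The endothelium was to be removed by perfusion with detergent, so that smooth muscle would remain. The extracts of 6 mice were pooled per segment, and both pools were hybridised together on 2 arrays: the arch RNA carried Cy3 (green) on array 1 and Cy5 (red) on array 2, and the thoracic RNA carried the other dye.

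The arrays repeat a single measurement of the same pools and count as 1 replicate. Each ± below is therefore the SD between the 2 arrays, the spread between mice is unknown, and no test could be run. All ratios are log2 of arch over thoracic, after correction of the local background with an added offset of 50 and loess normalization of each array. In all, 22811 genes could be compared, and their SD between arrays had a median of 0.06 and a 95th percentile of 0.18. The mean signal of the negative control spots lay between 77.0 and 97.1 in the 4 combinations of array and dye, and that of the median gene spot between 132.4 and 142.2, so dim probes stand close to background. By the scanner software's flags, 12 of 12 smooth muscle markers were well above background in both pools, 3 of them on saturated probes. So were 16 of 16 endothelial markers and 21778 of all 22811 genes compared, so the flag does not set these markers apart.

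In the prostanoid pathway, cyclo-oxygenase turns arachidonic acid into the unstable intermediate prostaglandin H2, and each terminal synthase turns that into its own product. Ptgs1 is the constitutive cyclo-oxygenase and Ptgs2 the inducible one. In the artery, prostacyclin acting on its receptor relaxes smooth muscle and restrains platelets, thromboxane contracts smooth muscle and activates platelets, and prostaglandin E2 acts either way depending on the receptor: Ptger2, Ptger4 and Ptgir raise cyclic AMP, Ptger3 lowers it, and Tbxa2r raises intracellular calcium.

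The promoters of 5 genes are shown because they belong to the cyclo-oxygenase pair (Ptgs1 with a ratio above 0 and Ptgs2 closer to 0) and to the receptors with the largest ratios in either direction (Ptgir, Ptger4 and Ptger3). Windows came from RefSeq (build GRCm38.p6) for 9 of the 10 genes, and those printed are the 250 bases before the annotated start, read 5′ to 3′ on the strand of the gene. Capitals mark matches to 6 short motifs searched on both strands. Of 32851 windows of the same length, the TATA box (TATAAA) occurs in 12.4%, the GC box (GGGCGG) in 32.7% and the CCAAT box (CCAAT) in 33.8%. The core of the cAMP response element (TGACGT) occurs in 6.47%, the E box (CACGTG) in 6.02% and the AP-1 site (TGANTCA) in 6.75%.
Ptgs1, chr2:36230176-36230425, plus strand: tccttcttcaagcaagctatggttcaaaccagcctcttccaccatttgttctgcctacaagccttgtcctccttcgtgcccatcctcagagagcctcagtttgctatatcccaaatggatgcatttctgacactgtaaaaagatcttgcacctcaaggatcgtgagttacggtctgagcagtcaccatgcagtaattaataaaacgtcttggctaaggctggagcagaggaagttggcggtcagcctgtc
Ptgs2, chr1:150099781-150100030, plus strand: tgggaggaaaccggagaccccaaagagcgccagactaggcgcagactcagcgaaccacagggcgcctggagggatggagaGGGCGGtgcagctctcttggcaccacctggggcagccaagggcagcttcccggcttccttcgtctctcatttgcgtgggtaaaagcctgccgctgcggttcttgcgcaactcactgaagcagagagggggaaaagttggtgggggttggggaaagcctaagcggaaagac
Ptgir, chr7:16906240-16906489, plus strand: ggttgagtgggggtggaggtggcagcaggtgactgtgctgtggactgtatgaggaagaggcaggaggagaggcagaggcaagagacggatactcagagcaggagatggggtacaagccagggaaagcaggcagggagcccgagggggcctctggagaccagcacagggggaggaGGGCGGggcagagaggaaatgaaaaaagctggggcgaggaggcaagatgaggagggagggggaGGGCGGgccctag
Ptger4, chr15:5244188-5244437, minus strand: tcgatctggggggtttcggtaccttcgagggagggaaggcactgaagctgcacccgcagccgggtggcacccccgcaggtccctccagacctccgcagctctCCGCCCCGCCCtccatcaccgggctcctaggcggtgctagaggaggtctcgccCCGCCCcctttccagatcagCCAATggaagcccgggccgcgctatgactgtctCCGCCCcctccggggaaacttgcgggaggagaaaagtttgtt
Ptger3, chr3:157566626-157566875, plus strand: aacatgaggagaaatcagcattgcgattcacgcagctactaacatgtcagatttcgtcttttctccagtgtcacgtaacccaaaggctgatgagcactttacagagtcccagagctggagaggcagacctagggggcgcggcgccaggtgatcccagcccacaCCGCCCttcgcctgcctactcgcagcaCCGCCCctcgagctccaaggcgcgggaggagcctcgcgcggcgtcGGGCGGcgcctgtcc

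The 3 receptor windows printed were alike in holding GC boxes. Ptger4 had 4 such matches, of which 2 overlap by 1 base, Ptger3 had 3, and Ptgir had 2. Ptgs2 had 1, and Ptgs1 had no match to any of the 6 motifs. Ptger4 also held 1 CCAAT box. Of the windows not printed, Ptges had 2 GC boxes, and Tbxas1 had an AP-1 site and TATA boxes overlapping on opposite strands. The receptors Tbxa2r and Ptger2 had 1 CCAAT box each and no GC box. The bases were 66.8% G or C in Ptger4, 63.6% in Ptgir, 62.0% in Ptger3 and 61.6% in Ptgs2, against 48.0% in Ptgs1 and a median of 52.4% over all windows. GC boxes thus stood before receptors on either side of 0. A match is a description of these letters and not of a factor bound there.

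No prostanoid gene passed the rules of size used here. Under a 2-fold rule (2-fold or more in the mean of the arrays, and the same way by 1.5-fold or more on each of them), 0 of 10 genes passed, against 0.618% of all genes compared (141 genes). With 1.5-fold on each array alone, 0 of 10 passed, against 1.59% (362 genes), of which the arch direction took 1.2% of all genes compared. The count of 0 is close to these shares and does not show that the pools were alike. The added offset draws the ratios of dim probes towards 0: without it, Ptger2, Ptger3 and Ptger4 stood at 0.44, -0.58 and 0.91, in place of 0.17, -0.33 and 0.40. The ratios ranged from -0.33 for Ptger3 to 0.40 for Ptger4, with a median of 0.13 beside -0.01 for all genes. Of the 10 genes, 9 lay above 0 on both arrays and 1 below 0 on both, whereas 32.4% of all genes lay above 0 on both. Within 1.2-fold in the mean were 5 of the 10 (Ptgs2, Ptges, Tbxas1, Tbxa2r and Ptger2), as were 89.7% of all genes.

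**Figure D1:**
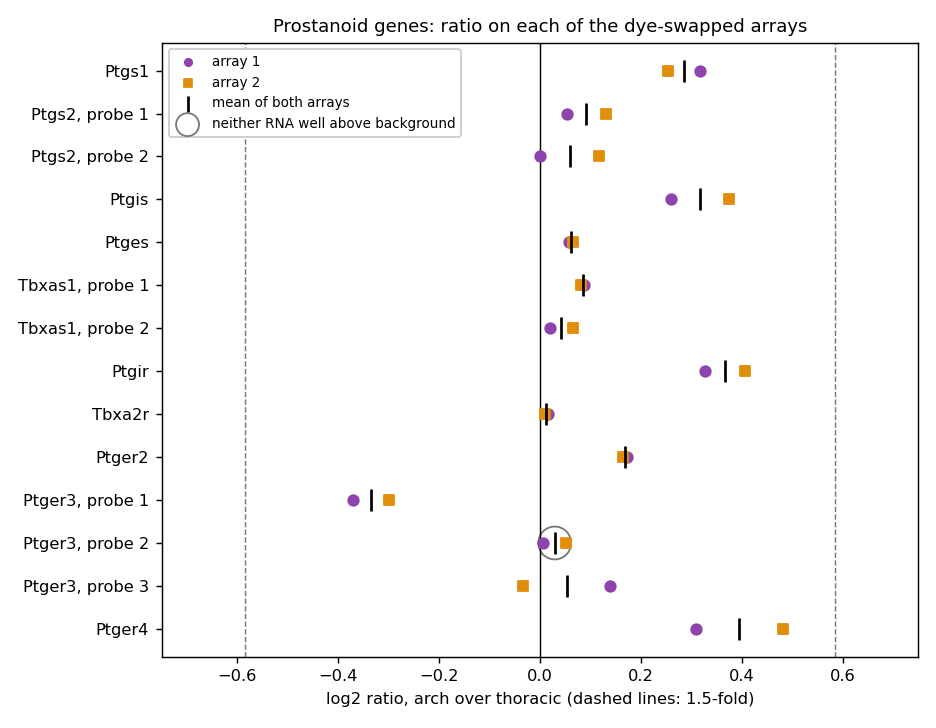
Log2 ratio of arch over thoracic (x axis) for each of the 14 probes of the prostanoid genes (rows), with a circle for array 1, a square for array 2 and a bar for their mean. The brightest probes of 9 genes sit right of 0 on both arrays, farthest in Ptger4, Ptgir, Ptgis and Ptgs1, the brightest Ptger3 probe sits left of 0, and no mean reaches the dashed 1.5-fold lines.

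Among the enzymes that start the pathway, Ptgs1 had the larger ratio. Its normalized signal, in the scanner's arbitrary units, was 443.7 and 420.6 in the arch pool on arrays 1 and 2, against 356.4 and 352.8 in the thoracic pool. Both arch values lay above both thoracic values, and the ratio was 0.32 on array 1 and 0.25 on array 2 (mean 0.28 ± 0.04, 1.22-fold). In the series, 5.66% of genes had a ratio at least as high.

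Ptgs2, the inducible enzyme, was measured by 2 probes, both within 1.2-fold. The brighter probe gave 196.2 and 211.3 in the arch pool, against 189.2 and 193.0 in the thoracic pool, and the ratio was 0.09 ± 0.06. Its dimmer probe gave 179.3 and 185.0 in the arch pool, against 179.4 and 170.6 in the thoracic pool, with a ratio of 0.06 ± 0.08. On array 1 the dimmer probe did not separate the pools (0.00). The brighter probe thus lay above 0 on both arrays, and its mean by more than its SD. On array 1 alone its ratio was 0.05, below that SD. The mean of the dimmer probe lay within its SD of 0.

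The synthases differed mainly by Ptgis, the cytochrome P450 enzyme that makes prostacyclin. Its signal was 2624 and 2797 in the arch pool, against 2194 and 2158 in the thoracic pool, at least 20.2 times the mean of the negative controls in every array and dye. Both arch values were higher, and the ratio was 0.26 on array 1 and 0.37 on array 2 (mean 0.32 ± 0.08, 1.25-fold). The scanner software's own log ratio gave the same mean of 0.32. A ratio at least this high was found in 4.77% of genes. With median centring in place of loess, its ratio was -0.11 on array 1 and 0.61 on array 2 (mean 0.25 ± 0.51).

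Ptges, the inducible microsomal prostaglandin E synthase, had signals of 133.3 and 159.0 in the arch pool, against 128.1 and 151.9 in the thoracic pool. The arrays differed more than the pools, and within each array the ratio was small (0.06 ± 0.01). Tbxas1, thromboxane synthase, gave 417.6 and 406.9 in the arch pool, against 393.1 and 384.6 in the thoracic pool (0.08 ± 0.00), and 0.04 ± 0.03 with its dimmer probe. Both thromboxane synthase probes lay within 1.2-fold. Tbxas1 is also known as a gene of macrophages and platelets, and those lists had medians of 0.18 (19 genes) and 0.19 (11 genes). Summed normalized signals of the macrophage markers, without Lyz2 on its saturated probe, were 51940 and 52284 in the arch pool, against 41270 and 41436 in the thoracic pool. With Lyz2, whose ratio was 0.79 on array 1 and -0.12 on array 2, they were 137795 and 107999 in the arch pool, against 90909 and 101811 in the thoracic pool. Of these markers, 1 of 19 passed the 1.5-fold rule in the arch direction. The sums of the platelet markers were 11079 and 11014 in the arch pool, against 13081 and 13252 in the thoracic pool, with 2 of 11 past it, again in the arch direction. All genes compared in both marker lists were well above background in both pools, as were 21778 of all 22811 genes compared. The part of macrophages and platelets in the Tbxas1 values was not tested. In tissue RNA, fewer cells of a type and less RNA per cell cannot be told apart.

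**Figure D2:**
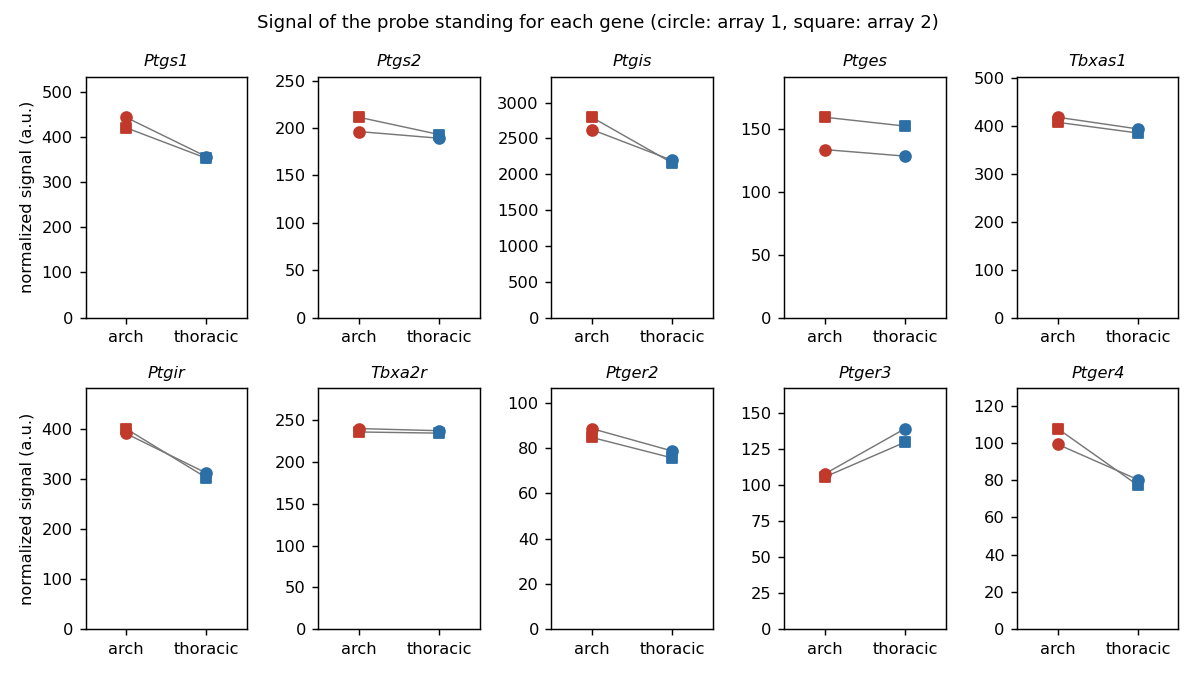
Normalized signal in arbitrary units (y axis, from 0, a separate scale per gene) in the arch and the thoracic pool, with circles for array 1 and squares for array 2, lines joining the pools on 1 array, and the brightest probe per gene. Both arch points lie above both thoracic points in Ptgs1, Ptgs2, Ptgis, Tbxas1, Ptgir, Ptger2 and Ptger4, both lie below in Ptger3, and in Ptges and Tbxa2r the pools overlap.

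The prostacyclin receptor, like its synthase, was higher in the arch pool on both arrays. Ptgir had signals of 390.5 and 400.2 in the arch pool, against 311.3 and 302.0 in the thoracic pool. Both arch values lay above both thoracic ones, and the ratio was 0.33 on array 1 and 0.41 on array 2 (mean 0.37 ± 0.06, 1.29-fold), a value reached by 3.59% of genes. The scanner software gave 0.43 ± 0.05, and its deposited error of the log ratio, in log2 units, was 0.19 for this spot on array 1 and 0.18 on array 2. Ptgis and Ptgir did not differ from each other beyond the SD between arrays. Tbxa2r, the thromboxane receptor, gave 240.2 and 236.1 in the arch pool, against 237.6 and 234.7 in the thoracic pool. Its ratio of 0.01 ± 0.00 was the smallest of the 10, and 90.7% of all genes had a ratio at least as large in size. The thromboxane pair thus lay closer to 0 than Ptgis and Ptgir.

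The lists of markers of other cell types had medians on the same side of 0 as Ptgs1, Ptgis and Ptgir. Of these genes, Ptgs1 and Ptgis are well known from endothelium. The endothelial list had a median of 0.37, with 16 of 16 genes above 0 and 4 past the 1.5-fold rule, led by Kdr (1.24 ± 0.04), Vwf (0.87 ± 0.04, with further probes at 0.03 and 0.68) and Emcn (0.78 ± 0.03). Summed signals of that list were 4161 and 4076 in the arch pool, against 2901 and 2834 in the thoracic pool. The mesothelial list had 12 of 12 genes past the 1.5-fold rule, a median of 1.28, and summed signals of 12940 and 12587 in the arch pool, against 5280 and 5184 in the thoracic pool. Adventitial fibroblast markers had a median of 0.26, with 11 of 12 above 0 and 2 past the 1.5-fold rule. Heart muscle markers had a median of 0.49, with 9 of 12 above 0 and 6 past that rule, led by Myl7 (3.65 ± 0.12). The smooth muscle markers had a median of 0.13, with 8 of 12 above 0 in the mean, 4 of them on both arrays, and none passed. On saturated probes were 3 of these 8, with ratios above 0 on array 1 and below 0 on array 2. Without those 3, summed signals of the list were 90881 and 93779 in the arch pool, against 97961 and 96738 in the thoracic pool. All genes compared in these lists were well above background in both pools, as were 21778 of all 22811 genes compared. To be compared, a gene already had to be so in at least 1 pool. The part of these cells in the ratios of Ptgs1, Ptgis and Ptgir was not tested.

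Among the receptors of prostaglandin E2, Ptger4 and Ptger2 lay above 0, and Ptger3 lay below 0 by its brightest probe alone. Ptger4, a receptor that raises cyclic AMP, had signals of 99.3 and 107.7 in the arch pool, against 80.2 and 77.1 in the thoracic pool. Both arch values were above both thoracic ones, and the ratio was 0.31 on array 1 and 0.48 on array 2 (mean 0.40 ± 0.12, 1.32-fold), which 3.13% of genes reached. This probe was dim: its unprocessed mean signal was 1.39 and 1.71 times that of the negative controls in the arch pool, against 1.31 and 1.15 times in the thoracic pool. The offset narrows the ratios of such probes, so the value depends on it. In the scanner software's log ratio, which adds no such offset, Ptger4 stood at 0.90 on array 1 and 1.24 on array 2 (mean 1.07 ± 0.24, 2.10-fold). There it was the 1 gene of the 10 to pass the 2-fold rule, against 1.35% of all genes, and the 1.5-fold rule, against 3.1%. With the same normexp correction and an offset of 0, its ratio was 0.91 ± 0.28, and it passed the 1.5-fold rule, as did 2.74% of all genes. The deposited error of the scanner software's log ratio was 0.72 on array 1 and 0.52 on array 2 in log2 units.

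Ptger2, which raises cyclic AMP as Ptger4 does, had signals of 88.7 and 84.8 in the arch pool, against 78.8 and 75.7 in the thoracic pool. Its ratio of 0.17 ± 0.01 was the same in direction on both arrays, and the scanner software gave 0.52 ± 0.20. The probe was as dim as that of Ptger4, and the deposited errors of its log ratio, 0.92 and 0.71, were larger than the ratio itself. By those errors, the scanner software's log ratio of Ptger2 did not stand clear of 0 on array 1 (0.38) or array 2 (0.67). The deposited errors were also larger than the scanner software's log ratios on both arrays for Ptgs2, Ptges, Tbxas1 and Tbxa2r.

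Ptger3, the receptor that lowers cyclic AMP, was the 1 gene with a ratio below 0. Its brightest probe gave 107.6 and 105.5 in the arch pool, against 139.2 and 129.8 in the thoracic pool. Both arch values lay below both thoracic ones, with a ratio of -0.37 on array 1 and -0.30 on array 2 (mean -0.33 ± 0.05, 1.26-fold higher in the thoracic pool), and 2.11% of genes were as low or lower. The scanner software gave -0.60 ± 0.04 (1.51-fold), with deposited errors of 0.41 and 0.31. The other probes of this gene did not repeat the direction. A second probe of the same transcript, well above background on both arrays in the arch pool and on 1 in the thoracic pool, gave 68.6 and 72.2 in the arch pool, against 62.3 and 73.9 in the thoracic pool (0.05 ± 0.12). The dimmest probe, named for another transcript record of the gene, was not well above background in either pool. Its ratio (0.03 ± 0.03) was therefore not compared. Ptger3 is known to be spliced into isoforms that differ at the end of the protein, and the sources used here do not say which of them each probe reads.

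**Figure D3:**
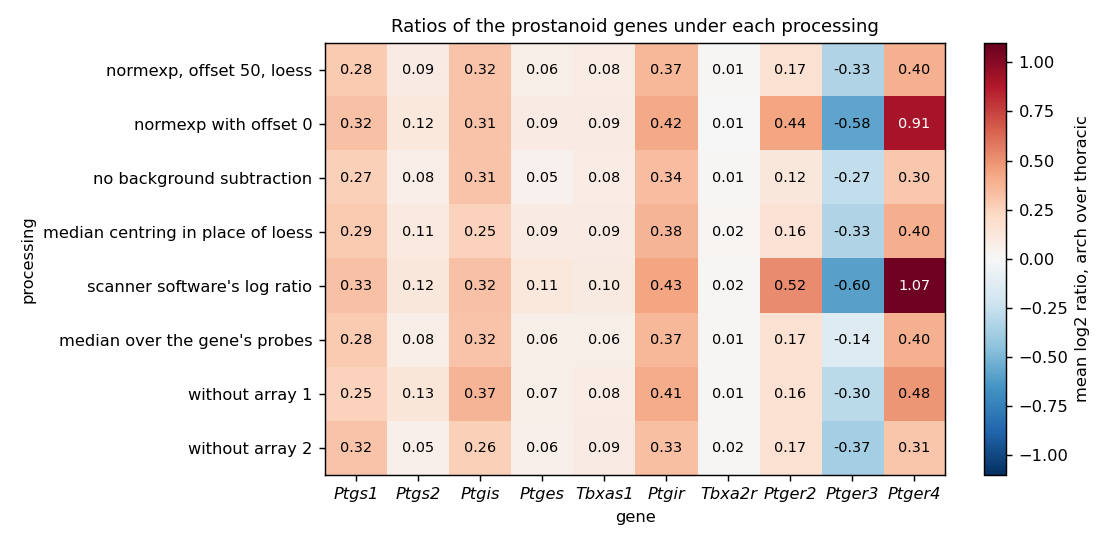
Mean log2 ratio of arch over thoracic for each prostanoid gene (columns) under each processing of the same arrays (rows), red above 0 and blue below. Ptger4 ranges from 0.30 to 1.07 and Ptger3 from -0.60 to -0.14, while Ptgs1, Ptgis and Ptgir stay between 0.25 and 0.43.

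Set against all genes compared, the 10 prostanoid genes stood within the 1.5-fold of equality that held 98.1% of genes. The highest ratios were those of Ptger4, Ptgir, Ptgis and Ptgs1 (0.40, 0.37, 0.32 and 0.28), and neighbours in that order did not differ beyond the SD between arrays. Ptger2 came next at 0.17, followed by Ptgs2, Tbxas1, Ptges and Tbxa2r, which lay between 0.01 and 0.09. Of these last, Ptgs2 and Tbxas1 did not differ beyond that SD.

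**Figure D4:**
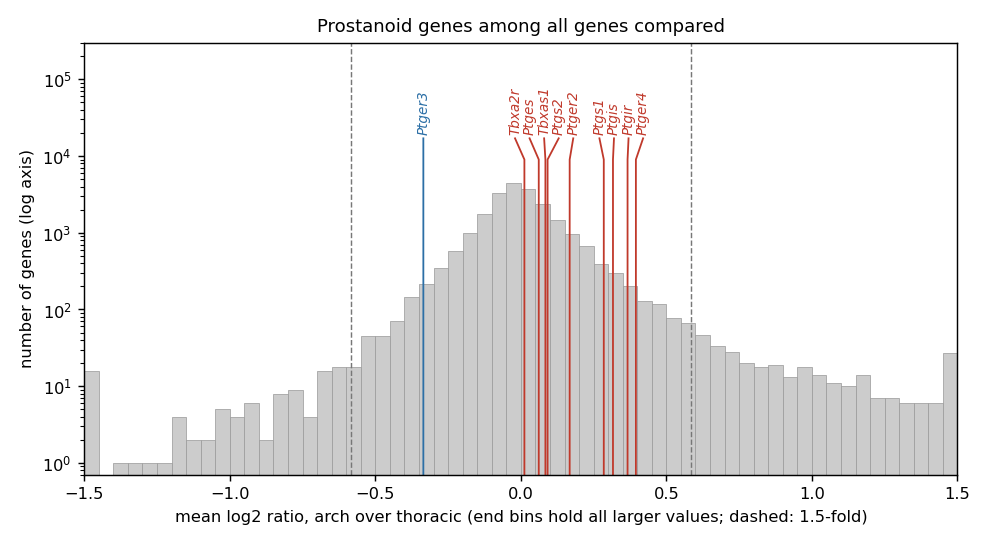
Number of genes (y axis, log scale) by mean log2 ratio of arch over thoracic (x axis) for the 22811 genes compared, with lines at the prostanoid genes and dashed lines at 1.5-fold. Ptger3 lies at -0.33, and the others lie between 0.01 and 0.40.

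Other genes of the prostanoid pathway, 16 in the list and 14 compared, did not pass either rule. Their median was 0.00, and 7 of 14 lay above 0. Hpgd, the dehydrogenase that inactivates prostaglandins, had the highest ratio: it gave 793.8 and 765.0 in the arch pool, against 586.4 and 551.3 in the thoracic pool (0.45 ± 0.03, 1.37-fold). Its second probe above background gave 0.33 ± 0.03. Ptgfr, the receptor of prostaglandin F2 alpha, followed with 334.0 and 312.0 in the arch pool, against 254.0 and 239.7 in the thoracic pool (0.39 ± 0.01). Hpgds, which makes prostaglandin D2 in blood-derived cells, stood at 0.27 ± 0.03, and the cytosolic prostaglandin E synthase Ptges3 at -0.28 ± 0.14, with a further probe at -0.09. Abcc4, an exporter of prostaglandins, stood at 0.13 ± 0.11, with a further probe at -0.07. Ptger1, the calcium-coupled prostaglandin E2 receptor, and Ptgdr, a prostaglandin D2 receptor, were not well above background in either pool.

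The probes of Slco2a1, the prostaglandin transporter, disagreed, and this gene is named because of those values. The probe for its RefSeq transcript gave 326.5 and 438.5 in the arch pool, against 320.7 and 449.9 in the thoracic pool (-0.01 ± 0.04), and as the brighter probe it stood for the gene. A probe for a cDNA clone under the same gene name gave 303.0 and 327.6 in the arch pool, against 143.6 and 144.8 in the thoracic pool. There both arch values were more than 2 times both thoracic ones, with a ratio of 1.13 ± 0.07 (2.18-fold), and by itself that probe would have passed the 2-fold rule. The sources used here do not say which transcript the clone represents.

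The list for phospholipase A2 and arachidonate release, 15 genes compared of 16, had a median of 0.04, with 8 above 0 and none past either rule. Not all of its genes release arachidonic acid: it also held Acsl4 (0.17), Lpcat3 (0.21) and Pla2g7. The largest ratios in that list were those of Pla2g7, which breaks down platelet-activating factor (0.28 ± 0.14), and Pla2g2d, a secreted phospholipase (0.24 ± 0.11). Pla2g15, the lysosomal phospholipase, stood at 0.24 ± 0.06. Pla2g4c stood at -0.23 ± 0.04, and Pla2g4a, the cytosolic phospholipase that supplies the cyclo-oxygenases, at -0.22 ± 0.12, with a second probe at -0.23 ± 0.02. The lipoxygenase and leukotriene list had 12 genes compared, a median of -0.08, 4 genes above 0 and none past either rule. The 10 prostanoid genes had 9 above 0 beside these lists, a difference for which the single pool per segment gives no test.

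**Figure D5:**
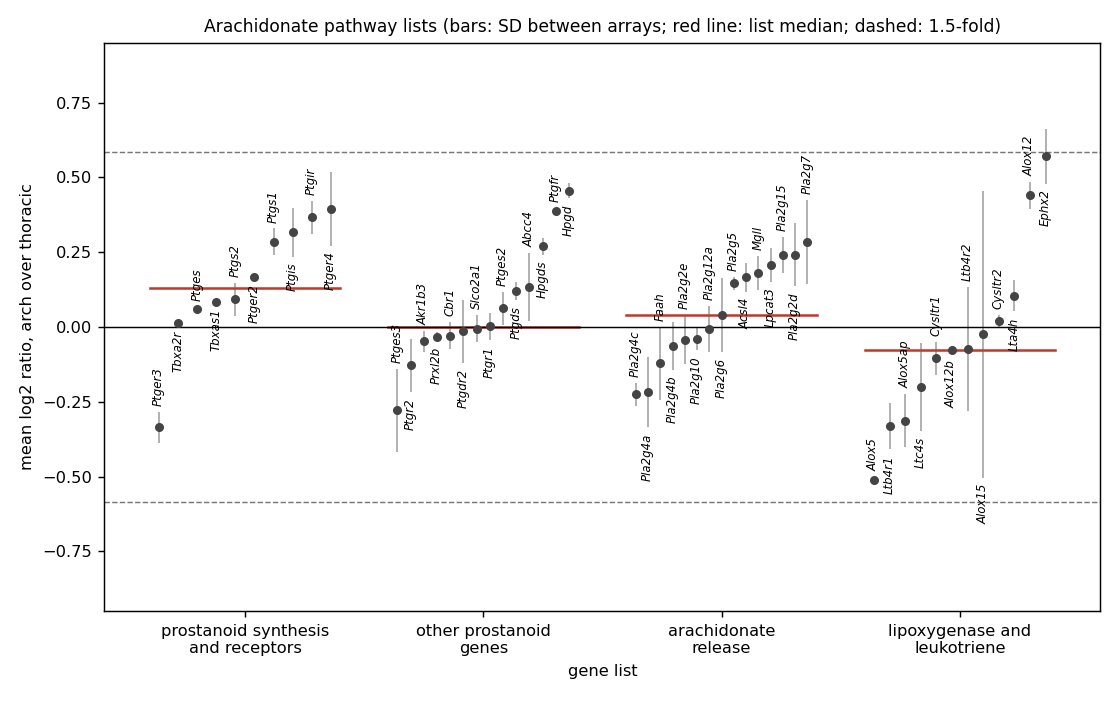
Mean log2 ratio of arch over thoracic (y axis) for the genes compared in 4 lists of arachidonate metabolism, with bars for the SD between arrays, red lines for list medians (0.13, 0.00, 0.04 and -0.08 from left to right) and dashed lines at 1.5-fold. The prostanoid synthesis and receptor genes lie above 0 except Ptger3, and the other lists spread to both sides.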

How the data were processed

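Both pools of apoE-/- aortic RNA were measured on 2 two-colour whole-genome arrays, with 5 µg of RNA labelled per dye from random nonamers, per the labels' protocols. The deposited scanner tables hold intensity values per spot, with Agilent Feature Extraction named as 8.1.1.1 in the headers and as 9.1.1.1 in the submitters' processing notes. Its deposited log10 ratio is red over green after its own background and dye corrections, per the file headers, and its deposited error was turned to log2 units. The deposited series table repeats these log10 ratios as arch over thoracic, with column medians of 0 and a correlation of 1.00 with the scanner's, so its scale and direction are settled. The sources used here give no genome build for the probes.

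From mean signals, limma 3.58.1 (R 4.3.3) gave the ratios: normexp with an offset of 50, loess with control spots at weight 0, array 1 turned, and both arrays averaged. Signals of each pool were taken after loess and Aquantile normalization. 13 outlier gene spots were left out. A probe was compared when an RNA was well above background on both arrays, and the brightest stood for its gene. Names outside the 10 genes came through RefSeq (GRCm38.p6, names alone): 21706 of 41534 spots matched by accession, 5476 by symbol and 4672 by synonym, and 9680 kept the file's name. The steps were tested on simulated arrays. The genes, lists and rules were chosen with earlier results of these data known. Named are all 10 genes, up to 5 genes per further list and up to 3 per marker list, by size. Also named are Slco2a1, Acsl4, Lpcat3 and Lyz2, and the genes not well above background, Ptger1 and Ptgdr. Alternatives changed the background correction, the normalization, the filter on dim or saturated probes, the choice of probe and the arrays used.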

Additional observations from a re-analysis of the deposited data

How the results depend on the processing

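No paired analysis was possible because both arrays hold the same 2 pools and form 1 group. Over the 11 alternatives, no prostanoid gene changed the sign of its mean ratio. Several of them could not have changed it. The filters on dim and saturated probes left every value as it was, and each array alone already had the sign of the mean. The deposited table repeats the scanner software's ratios. The number of the 10 genes past the 1.5-fold rule was 0 as reported and 1, Ptger4, with an offset of 0 (2.74% of all genes passed there), in the scanner software's log ratio and in the deposited table of the whole series (3.1% in each). The number past the 2-fold rule was 0 as reported and 1, again Ptger4, in those deposited log ratios and table (1.35% of all genes in each). Without array 1 and without array 2 both counts were 0. Counts over all genes moved likewise: past the 1.5-fold rule 362 genes as reported, 626 with an offset of 0 and 707 in the deposited log ratio, and past the 2-fold rule 141, 262 and 309. Ptger2 ranged from 0.12 to 0.52, Ptger3 from -0.60 to -0.14, with -0.14 from the median over its probes, and Ptger4 from 0.30 to 1.07. Their signal over background limits these values. Median centring in place of loess left Ptgis at 0.25 in the mean but at -0.11 on array 1 and 0.61 on array 2, and Ptgs2, Tbxas1 and Tbxa2r also differed in sign between the arrays there, so their agreement between arrays rests on loess.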

Other observations

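Genes of the leukotriene branch, which share arachidonic acid with the prostanoids, were listed with other lipoxygenases and Ephx2, and 6 of these 12 genes had ratios below 0 on both arrays, as did 35.2% of all genes. Alox5, the lipoxygenase that starts leukotriene synthesis, gave 474.5 and 493.7 in the arch pool, against 673.1 and 706.1 in the thoracic pool (-0.51 ± 0.01, 1.42-fold higher in the thoracic pool). All 3 of its probes pointed the same way, the others at -0.37 ± 0.02 and -0.20 ± 0.09. Its partner Alox5ap, which presents arachidonic acid to the enzyme, stood at -0.31 ± 0.09, and the leukotriene B4 receptor Ltb4r1 at -0.33 ± 0.08. In the other direction stood Ephx2, the soluble epoxide hydrolase (0.57 ± 0.09), and the platelet-type lipoxygenase Alox12 (0.44 ± 0.04, a second probe at 0.25 ± 0.07). None of these genes passed the 1.5-fold rule, and no test was possible with 1 pool per segment.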
